A study of Arabidopsis thaliana with 18 samples.

Results

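The subject is the course of mock-treated Arabidopsis thaliana leaves between 12 and 24 h after spraying, in leaves in which PAD4 had not been induced. All 6 libraries with the mock label at these times were used, 3 at 24 h and 3 at 12 h, of 18 libraries in all. In the line used, ED-P4E1, estradiol switches on a PAD4 transgene and the 35S promoter drives an EDS1 transgene at all times, in Col-0 plants that are mutant at both loci (eds1-2 pad4-1), so every group carried both mutations and both transgenes. The mock groups were sprayed with 0.2% DMSO and 0.01% silwet-77 and sampled at 24 h and at 12 h. Mock leaves of 6 h, and leaves sprayed with 10 µM estradiol and taken at 24 and 12 h, are used beside them. Plants were 4 weeks old and grew at 22 °C with a 10 h photoperiod. The hour of spraying is not in the labels, so elapsed time after spraying and time of day cannot be told apart, and no unsprayed plants were analysed here. Whether the libraries of a group are from separate plants is not in the labels; a p-value here speaks to the spread among these libraries, which may be technical.

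In Arabidopsis leaves a circadian clock of transcription factors that repress one another in turn sets the daily course of a large share of transcripts. CCA1 and LHY are known as its dawn components, the PRR proteins follow one after another through the day, and TOC1 and the evening complex of ELF3, ELF4 and LUX act around dusk and in the night. The clock and light together drive genes for photosynthesis, starch turnover, pigments and water channels.

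Polyadenylated RNA was counted per gene. The gene counts were 29.2 to 48.1 M per library at 24 h and 25.0 to 33.9 M at 12 h (M, 1e6 reads). Levels are given as counts per 1e6 reads (CPM) after TMM scaling, a scaling between libraries that trims the most extreme genes. Means ± SD are over n = 3 libraries of a group. Of 32678 genes 19227 passed the filter on low counts and were tested, with edgeR's quasi-likelihood test and a Benjamini-Hochberg adjusted p below 0.05 as the call. PAD4, the gene behind the inducible promoter, had 17.1, 16.1 and 20.9 CPM at 24 h, against 15.8, 16.2 and 16.2 CPM at 12 h, and was not called (edgeR adjusted p = 0.62). EDS1, its partner in immunity, averaged 4342 ± 373 CPM at 24 h and 2343 ± 649 CPM at 12 h and rose 1.85-fold. On total counts alone EDS1 was not called (log2 0.28, edgeR adjusted p = 0.199). Reads of a transgene and of the mutant locus are counted together, and EDS1 has a near-identical copy in the genome.

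Most tested genes differed between the times. EdgeR called 14429 genes (75.0%), 6911 higher at 24 h (35.9%) and 7518 lower (39.1%). The call was at least 2-fold for 3147 genes that rose (16.4%) and 3033 that fell (15.8%), and at least 8-fold for 613 (3.19%) and 376 (1.96%). Libraries of the 2 times did not overlap for 14787 genes (76.9%). In mock leaves 33.7% of genes were called higher and 30.6% lower at 12 h against 6 h, and 34.3% higher and 31.9% lower at 24 h against 6 h, comparisons that share libraries with this one. With so many genes called, a list is described below by its members called at least 2-fold and by its median log2 fold change, read against -0.03 for all tested genes. The 10 most abundant genes took 9.97 to 10.9% of the counts at 24 h and 5.89 to 6.00% at 12 h, and the TMM factors were 0.795 to 0.852 at 24 h and 1.24 to 1.27 at 12 h. Without these factors, on total counts alone, the median of all genes was -0.63 and the split was 3426 genes higher and 12598 lower. Directions in the text are therefore relative to the bulk of genes, and those that turn on total counts are named.

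The morning genes of the clock were the group with the largest median rise among the lists. Of 14 members tested, 12 rose and 2 fell, all at least 2-fold, and the median log2 fold change was 6.73. CCA1, a MYB-type repressor of evening genes, had 503, 525 and 543 CPM at 24 h, against 0.253, 0.211 and 0.142 CPM at 12 h, a 2612-fold rise (log2 11.35 ± 0.14 SE, edgeR adjusted p = 1.2e-20). LHY, its close relative, had 644, 691 and 765 CPM at 24 h, against 0.221, 0.331 and 0.308 CPM at 12 h, and rose 2385-fold. All libraries of 24 h lay far above all libraries of 12 h for both genes. LNK1, LNK2 and LNK3, coactivators that work with RVE8, rose 634-fold, 410-fold and 1991-fold. LNK2 reached the highest level of the group, with 1114 ± 74.7 CPM at 24 h and 2.71 ± 0.129 CPM at 12 h. RVE8, an activator of evening genes, rose 166-fold to 142 ± 4.47 CPM at 24 h, against 0.832 ± 0.255 CPM at 12 h. Other RVE genes of the list rose too, RVE1 55.1-fold, RVE7 68.1-fold and RVE4 2.56-fold, as did AT5G52660, 2.83-fold.

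PRR9, the first PRR gene of the day, had 5703 counts in the libraries of 24 h and 3 counts in those of 12 h, a ratio of 2275 (exact 95% interval 778 to 11037, which covers counting error only). Without replicate 2 of 12 h its fitted log2 change was 11.81, against 10.95 with it, and that of RVE7 was 6.70 without replicate 3 of 12 h, against 6.09. PRR7, the next in the series, rose 18.2-fold to 87.6 ± 1.76 CPM at 24 h, against 4.86 ± 0.749 CPM at 12 h. PRR5 and RVE2 went the other way. PRR5, a later PRR gene, had 0.177 ± 0.0913 CPM at 24 h and 1.33 ± 0.258 CPM at 12 h, both far below its 96.6 ± 2.92 CPM at 6 h. RVE2, a MYB gene of the CCA1 family, fell 37.7-fold (log2 -5.24 ± 0.16 SE), and its libraries did not overlap between the times.

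Evening genes of the clock fell. Of 11 members tested 8 fell and 3 rose, 7 and 1 of them at least 2-fold, and the median log2 fold change was -3.97. TOC1 had 4.18, 3.40 and 3.82 CPM at 24 h, against 55.7, 57.7 and 63.7 CPM at 12 h, a 15.7-fold fall (log2 -3.97 ± 0.07 SE, edgeR adjusted p = 1.5e-18). The 3 evening complex genes were all low at 24 h. ELF3 had 1.99 ± 0.383 CPM at 24 h and 80.0 ± 0.599 CPM at 12 h. ELF4 had 0.117 ± 0.0384 CPM at 24 h and 14.1 ± 1.32 CPM at 12 h, and LUX had 0.417 ± 0.0248 CPM at 24 h and 3.01 ± 0.390 CPM at 12 h. BOA, a close relative of LUX, fell 71.3-fold, and PRR3, a partner of TOC1, fell 268-fold. FKF1, a blue light receptor of the photoperiod pathway, had 1 count in the libraries of 24 h and 953 in those of 12 h, a ratio of 796 (exact 95% interval 143 to 31480). With so few reads at 24 h the fitted sizes hung on single libraries: the log2 change of FKF1 was -11.08 without replicate 3 of 24 h and -9.18 with it, and that of BOA was -7.16 without replicate 2 of 24 h and -6.16 with it.

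GI did not move with most evening genes. GI, a scaffold for FKF1 and ZTL, had 70.9, 75.1 and 82.3 CPM at 24 h, against 1.46, 0.812 and 0.806 CPM at 12 h, and rose 75.5-fold. ZTL, which marks TOC1 for degradation, rose 1.90-fold. LKP2, the third member of the ZTL family, rose 1.12-fold, a direction that turned on total counts. CHE, a repressor of CCA1, fell 1.25-fold (edgeR adjusted p = 0.041), but its libraries overlapped, at 27.4, 21.1 and 15.9 CPM at 24 h and 27.6, 27.8 and 25.1 CPM at 12 h. The call of CHE was lost without any of 4 libraries (edgeR adjusted p = 0.0926 to 0.244 without replicate 2 or 3 of 24 h or replicate 1 or 2 of 12 h), with DESeq2 size factors (edgeR adjusted p = 0.058) and in a fit of these 6 libraries alone (edgeR adjusted p = 0.136). The call of LKP2 was lost with upper-quartile scaling (edgeR adjusted p = 0.146) and without replicate 2 or 3 of 24 h or replicate 2 of 12 h (edgeR adjusted p = 0.0844, 0.05 and 0.0702).

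**Figure D1:**
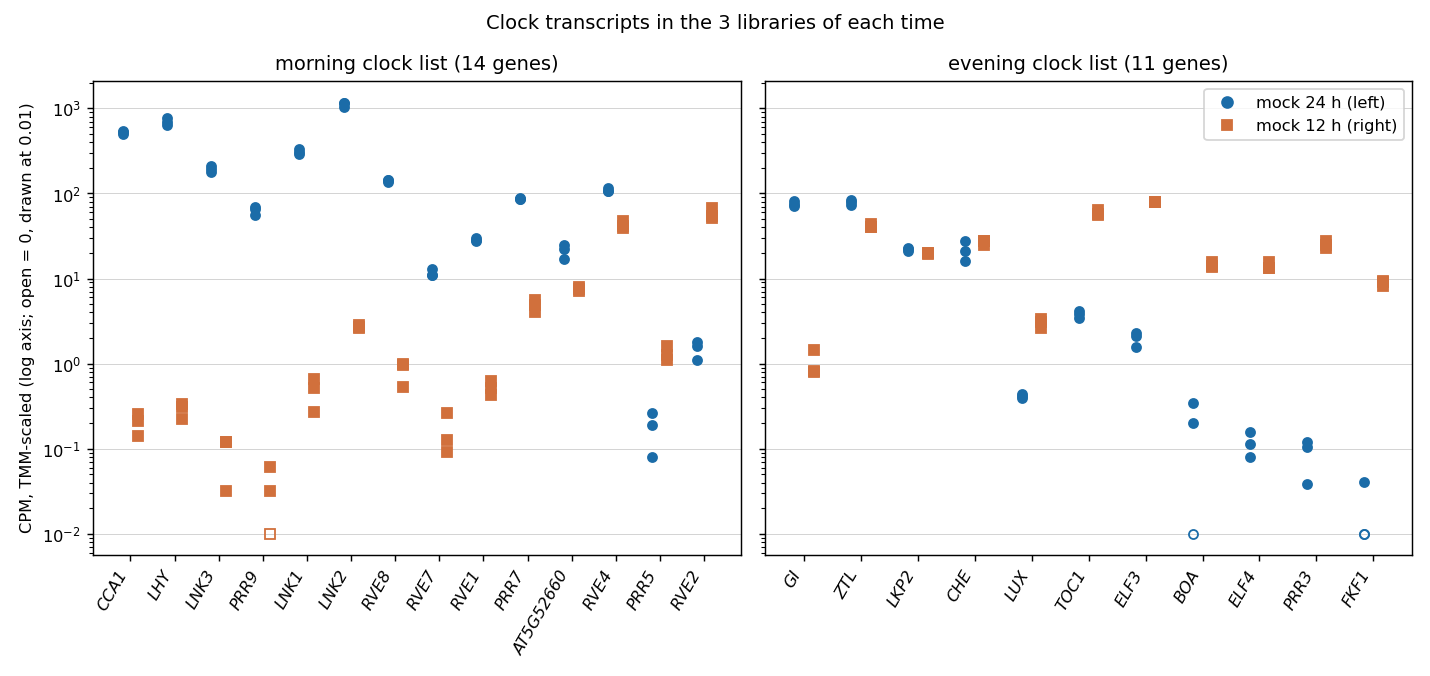
CPM on a log axis of each clock gene in the 3 mock libraries of 24 h (circles, left) and of 12 h (squares, right), ordered by fold change; open symbols are libraries with 0 counts. The times do not overlap for any gene of either list but CHE.

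Genes that carry clock time to flowering and light responses moved in both directions, mostly upward. Of 15 members of the photoperiod and output list, 11 rose and 4 fell, all at least 2-fold, with a median of 5.14. BBX18, BBX24 and BBX25, B-box proteins of light signalling, rose 425-fold, 69.0-fold and 242-fold. COL2, a CONSTANS-like gene, had 196, 192 and 181 CPM at 24 h and 5.60, 6.44 and 6.80 CPM at 12 h. CDF1 and CDF3, DOF factors that repress CO, rose 88.0-fold and 154-fold, and CO, the activator of flowering in long days, fell 14.1-fold from low levels, with 0.114, 0.183 and 0.321 CPM at 24 h and 2.91, 3.34 and 2.46 CPM at 12 h. GRP7, a glycine-rich RNA-binding protein under clock control, averaged 16.6 ± 1.75 CPM at 24 h, against 912 ± 52.2 CPM at 12 h, a 54.9-fold fall.

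Of 23 photoreceptor and light signalling genes 19 rose and 4 fell, 15 and 1 of them at least 2-fold (median 1.42). PIF4, PIF5 and PIF7, bHLH factors that phytochromes hold in check, rose 10.5-fold, 32.6-fold and 11.5-fold. HYH, the homolog of the light regulator HY5, rose 35.2-fold. RUP2, which turns off the UV-B receptor, rose 28.8-fold. ELIP1, a photoprotective protein induced by strong light, had 72.5, 93.9 and 80.0 CPM at 24 h and 0.411, 0.842 and 0.213 CPM at 12 h, a log2 change of 7.44 that was 8.08 without replicate 2 of 12 h. CRY2, a blue light receptor, was the member that fell at least 2-fold, to 48.9 CPM on average at 24 h, against 182 CPM at 12 h.

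Short sequence motifs near the gene start were counted as a description, in the stretch from 250 bases before to 50 bases after the annotated start in RefSeq's TAIR10.1 genome, on both strands and with no test. The evening element, spelled AAAATATCT, is a known binding site of CCA1, LHY and RVE8. It stood in 12.8% of the promoters of genes called at least 8-fold lower, in 3.75% of those at least 8-fold higher and in 3.03% of all tested. The G-box, CACGTG, a site of bHLH and bZIP factors such as the PIF proteins and HY5, stood in 17.5% of the promoters at least 8-fold higher, 9.04% of those at least 8-fold lower and 8.82% of all tested. The telo-box, AAACCCTA, was in 3.36% of promoters called higher, 7.90% of those called lower and 5.64% of all, but in 1.79% of those at least 8-fold higher and 4.26% of those at least 8-fold lower, both below the share of all. Shares for the CCA1 binding site, AAAAATCT, were 8.28% among genes called higher, 8.14% among those called lower and 8.18% of all, and 8.97 and 9.57% among those at least 8-fold higher and lower. For the I-box, GATAAG, the shares were 15.4% of genes called higher, 14.8% of those called lower and 14.9% of all, and 13.1 and 17.3% of those at least 8-fold higher and lower. For the HUD element, CACATG, they were 14.4% of genes called higher, 11.5% of those called lower and 12.6% of all, and 17 and 12% of those at least 8-fold higher and lower. Among all called genes the evening element stood in 2.18% of those higher and 4.05% of those lower, and the G-box in 11.1% and 7.08%. A match is a stretch of letters, not a shown binding site.

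The evening element was found in 9 promoters of the 21 clock genes and strongest falls that were lower, and in 2 of the 27 clock genes and strongest rises that were higher. The G-box was in 4 of the 21 and in 12 of the 27. Over all tested promoters the shares were 3.03% for the evening element and 8.82% for the G-box. The 21 and the 27 were picked by fold change or as clock genes, so the counts describe these genes only. The 200 bases before the start are printed for 3 genes that fell and carry the evening element and for 3 that rose and carry the G-box, 5′ to 3′ on the gene's strand, with those motifs in capitals (AGATATTTT is the evening element on the other strand). GRP7 (AT2G21660, chr2:9266558-9266757, minus strand) holds 3 evening elements, and TOC1 (AT5G61380, chr5:24674763-24674962, plus strand) and FKF1 (AT1G68050, chr1:25508439-25508638, plus strand) hold 1 each in this stretch. LHY (AT1G01060, chr1:37872-38071, minus strand) and CCA1 (AT2G46830, chr2:19245391-19245590, plus strand) hold 1 G-box each, and LNK3 (AT3G12320, chr3:3923315-3923514, plus strand) holds 2.
GRP7: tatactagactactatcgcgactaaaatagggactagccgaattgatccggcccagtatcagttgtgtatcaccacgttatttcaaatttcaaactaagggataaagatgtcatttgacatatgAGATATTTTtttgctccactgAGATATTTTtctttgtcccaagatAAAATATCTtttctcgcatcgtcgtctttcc
TOC1: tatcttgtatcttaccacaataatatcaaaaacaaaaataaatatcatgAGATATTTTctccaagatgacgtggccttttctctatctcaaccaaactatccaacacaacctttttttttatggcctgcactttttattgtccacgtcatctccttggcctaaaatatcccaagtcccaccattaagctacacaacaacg
FKF1: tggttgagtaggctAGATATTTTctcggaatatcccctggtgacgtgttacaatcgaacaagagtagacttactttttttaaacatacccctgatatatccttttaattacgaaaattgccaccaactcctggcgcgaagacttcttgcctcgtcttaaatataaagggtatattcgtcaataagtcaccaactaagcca
LHY: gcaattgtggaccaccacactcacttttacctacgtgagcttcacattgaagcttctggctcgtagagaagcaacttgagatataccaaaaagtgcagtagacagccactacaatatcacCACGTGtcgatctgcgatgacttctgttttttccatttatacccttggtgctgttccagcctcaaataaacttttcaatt
CCA1: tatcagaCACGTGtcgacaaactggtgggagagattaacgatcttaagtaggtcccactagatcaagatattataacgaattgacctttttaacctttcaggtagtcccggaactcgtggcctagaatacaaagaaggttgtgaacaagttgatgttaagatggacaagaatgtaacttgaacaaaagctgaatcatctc
LNK3: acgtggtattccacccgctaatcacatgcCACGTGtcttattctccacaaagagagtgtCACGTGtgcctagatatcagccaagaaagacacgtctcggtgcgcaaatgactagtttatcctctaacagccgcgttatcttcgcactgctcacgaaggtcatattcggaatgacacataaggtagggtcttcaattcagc

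B-box genes stood among the 15 largest rises. BBX16, a member of the photoperiod list, had 21059 counts at 24 h and 3 at 12 h, a ratio of 8402 (exact 95% interval 2875 to 40747). BBX30 had no count in the libraries of 12 h and was at least 767-fold higher at 24 h, taking 3 counts over the 3 libraries as the floor. BBX31 and BBX29 had 1 count each at 12 h and 1400 and 1189 at 24 h. ASG4, a MYB factor related to RVE8, rose 575-fold, and CIPK20, a kinase that binds calcium sensors, rose 1172-fold. LEA3, a late embryogenesis abundant protein, had 287 ± 13.2 CPM at 24 h and 0.479 ± 0.151 CPM at 12 h. UMAMIT36, of a family of amino acid transporters, varied more between libraries, with 3.87, 10.6 and 21.7 CPM at 24 h and 1 count at 12 h. ABCF2, an ATP-binding cassette protein, had no count at 12 h and was at least 315-fold higher. Leaving out 1 library of 12 h moved the fitted log2 change of BBX31 to 11.86 from 10.17, of BBX29 to 11.62 from 9.92, of UMAMIT36 to 11.49 from 9.80 and of CIPK20 to 10.90 from 10.19, by replicate 2, 1, 1 and 2.

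Among the 15 largest falls BT2, a BTB and TAZ domain protein known to respond to sugar and nitrate, had 0.0760, 0.157 and 0.0402 CPM at 24 h, against 240, 280 and 220 CPM at 12 h, a 2356-fold fall. BT2 was also low at 6 h, at 0.958 ± 0.120 CPM. JMJD5, a jumonji protein tied to the clock, fell 139-fold to 1.26 ± 0.145 CPM at 24 h, against 177 ± 3.75 CPM at 12 h, and it too was low at 6 h, at 1.69 ± 0.350 CPM. COR27, a cold-regulated gene of the clock and light pathways, showed the same order, with means of 1.92, 52.2 and 0.276 CPM at 6, 12 and 24 h. COL9, a CONSTANS-like gene that delays flowering, fell 136-fold, and MEE14 fell 255-fold. DTX1, a MATE efflux carrier, RIBA2, of riboflavin synthesis, and WCRKC1, a thioredoxin, fell 113-fold, 48.4-fold and 51.4-fold. Without replicate 2 of 24 h the log2 change of BT2 was -11.94, against -11.20 with it, and that of DTX1 was -6.05, against -6.82. The remaining members, BG3 and PCR1, are taken up with the defence genes.

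Antenna genes, which encode the chlorophyll proteins that gather light for both photosystems, rose in every case. All 19 were called higher, 18 of them at least 2-fold, and the median log2 fold change was 2.87. LHCB2.1 had 4024, 3981 and 3501 CPM at 24 h, against 4.90, 5.66 and 5.43 CPM at 12 h, a 718-fold rise. LHCB2.2 and LHCB2.3 rose 370-fold and 399-fold, LHCB6 18.3-fold, LHCB3 21.8-fold and LHCA4 11.8-fold. Members of the LHCB1 and LHCB2 groups are near-identical in sequence, so the split of reads among them is uncertain, but the sum over the list was 88317 to 107910 CPM at 24 h and 14138 to 16904 CPM at 12 h. LHCB2.1 was as abundant at 6 h, at 3620 ± 154 CPM. In whole leaves, fewer cells of a type and less RNA per cell cannot be told apart.

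Other nuclear photosystem and electron transport genes rose by smaller factors. Of 30 tested, 29 rose and 1 fell, 25 of the rises at least 2-fold, with a median of 1.45. PSAD2 and PSAH2, subunits of photosystem I, rose 15.5-fold and 8.87-fold. FD1, a leaf ferredoxin, rose 5.97-fold, and PSBS, which lets the antenna shed excess energy as heat, rose 4.49-fold to 3622 ± 223 CPM at 24 h, against 806 ± 39.2 CPM at 12 h. FNR2, a ferredoxin NADP reductase, was the member that fell, 1.98-fold. Transcripts of the plastid genome itself, of which this poly(A) protocol catches few, gave 5 called of 9, none at least 2-fold, with a median of 0.31 that turned to -0.30 on total counts; without replicate 2 of 12 h 8 were called.

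Pigment synthesis followed. Of 23 chlorophyll and carotenoid genes 19 rose and 4 fell, 14 and 2 of them at least 2-fold (median 1.04). CHLH, the large subunit of magnesium chelatase, had 5953, 5856 and 5078 CPM at 24 h, against 276, 304 and 294 CPM at 12 h, a 19.3-fold rise. GUN4, its activator, rose 22.7-fold, HEMA1, the first committed enzyme of tetrapyrrole synthesis, 21.5-fold, CRD1 18.6-fold and CAO, which makes chlorophyll b, 52.0-fold. ABA1, the zeaxanthin epoxidase, had 1353 ± 120 CPM at 24 h and 35.1 ± 0.987 CPM at 12 h. PORB, a light-dependent protochlorophyllide reductase, fell 5.97-fold to 22.2 ± 8.49 CPM at 24 h, against 133 ± 5.95 CPM at 12 h. NPQ1, the violaxanthin de-epoxidase that runs opposite to ABA1, fell 2.97-fold. Of 9 chloroplast regulators 8 rose and 1 was not called, 4 of the rises at least 2-fold. SIGE, a plastid sigma factor, was the most changed, with 406 ± 72.2 CPM at 24 h and 1.72 ± 0.213 CPM at 12 h. GLK1 and GLK2, activators of photosynthesis genes, rose 3.15-fold and 10.6-fold.

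Carbon fixation genes rose without the large factors of the antenna. Of 18 Calvin cycle and Rubisco genes 15 rose, 10 of them at least 2-fold, and none fell (median 1.09). FBA1, a plastid aldolase, rose 12.8-fold and RCA, Rubisco activase, 5.71-fold, to 22365 ± 1040 CPM at 24 h, against 3914 ± 512 CPM at 12 h. SBPASE rose 2.97-fold and RBCS1A, a Rubisco small subunit, 1.97-fold. TKL1, a transketolase, had 2463 ± 134 CPM at 24 h and 2442 ± 140 CPM at 12 h and was not called; on total counts it was called lower, as was CP12-1. All 14 photorespiration genes rose, 8 of them at least 2-fold (median 1.13). CAT2, the leaf catalase that clears peroxide from photorespiration, had 5777, 6784 and 6974 CPM at 24 h, against 153, 166 and 191 CPM at 12 h, a 38.3-fold rise. GLDP2, of the glycine decarboxylase, rose 7.96-fold, and GOX1, a glycolate oxidase with a near-identical copy, 2.58-fold.

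**Figure D2:**
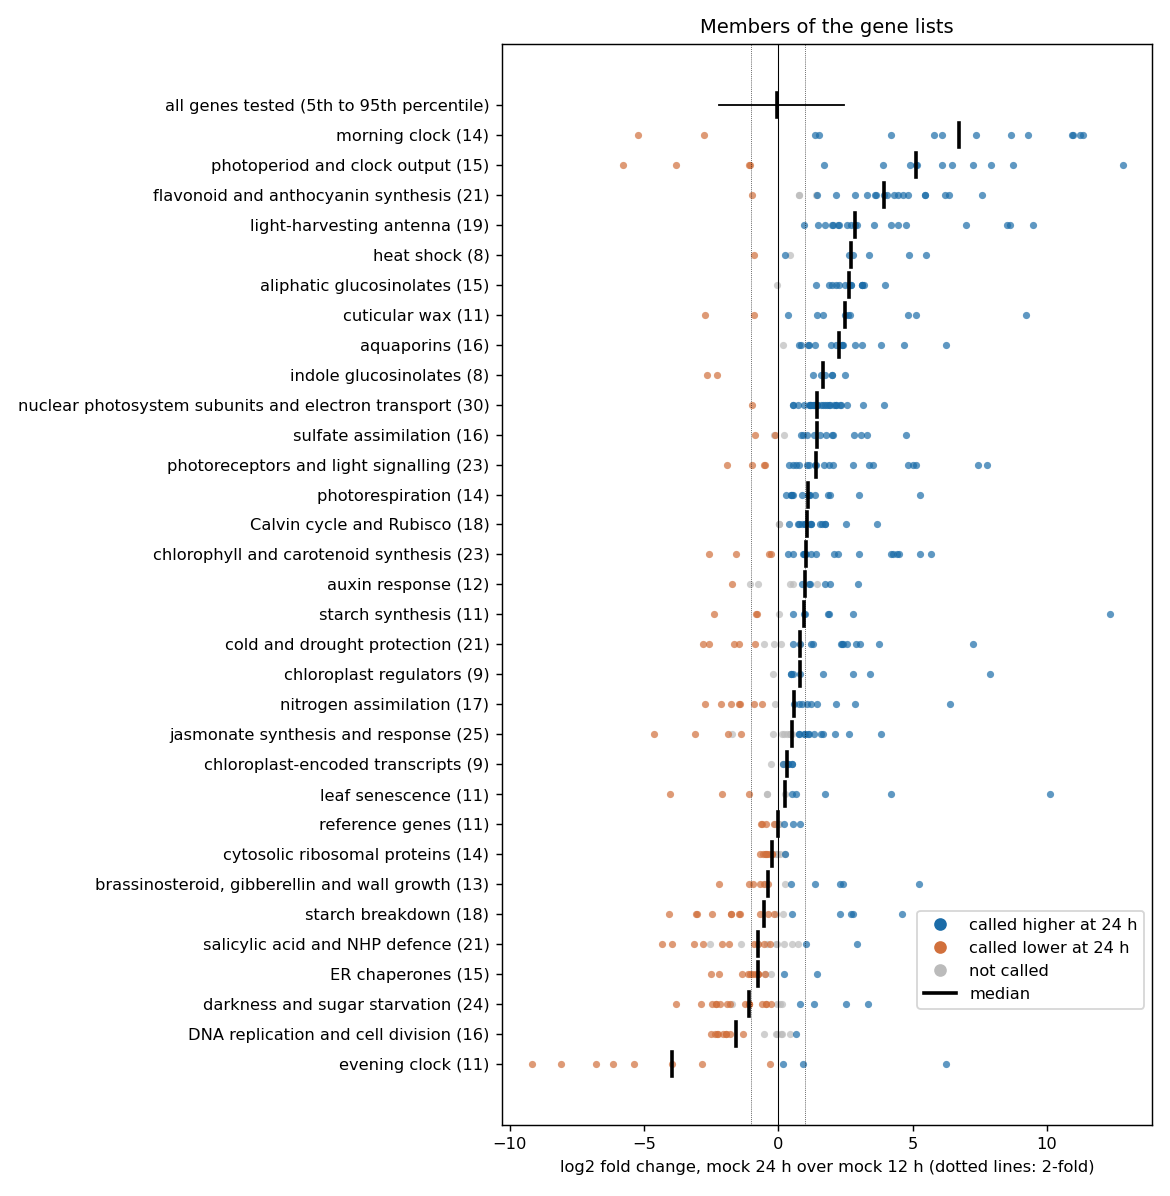
Log2 fold change of mock 24 h over mock 12 h (x axis) for each tested member of the 32 gene lists other than cell type markers (y axis, number tested in brackets), with black bars at medians. The morning clock stands highest at 6.73 and the evening clock lowest at -3.97; the bar at the top spans the 5th to the 95th percentile of all genes tested.

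More starch synthesis genes rose than fell, and more breakdown genes fell than rose, with members of both lists going the other way. Of 11 synthesis genes 7 rose and 3 fell, 4 and 1 of them at least 2-fold (median 0.95). GBSS1, the granule-bound synthase that makes amylose, had 2048, 2343 and 2374 CPM at 24 h, against 0.411, 0.451 and 0.426 CPM at 12 h, a 5199-fold rise. SS2 and SS3, starch synthases, rose 6.96-fold and 3.72-fold, APL1, of ADP-glucose pyrophosphorylase, 1.93-fold, and SBE2.1, a branching enzyme, fell 5.24-fold. In the breakdown list 5 rose and 11 fell of 18, 4 and 8 of them at least 2-fold (median -0.52). ISA3, a debranching enzyme, had 7.10, 7.12 and 8.80 CPM at 24 h, against 122, 136 and 123 CPM at 12 h, a 16.6-fold fall. PHS2, a cytosolic phosphorylase, fell 8.31-fold, PWD, which phosphorylates starch, 5.45-fold, and AMY3, a plastid amylase, 3.34-fold. The beta-amylase genes BAM1, BAM3 and BAM9 rose 6.98-fold, 6.59-fold and 24.2-fold. DPE2, the cytosolic enzyme that uses maltose, was not called, at 143 ± 9.48 CPM at 24 h and 150 ± 7.35 CPM at 12 h, though it was called lower on total counts (log2 -0.67, edgeR adjusted p = 3.05e-08).

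Genes of the darkness and sugar starvation list mostly fell. Of 24 tested 16 fell and 4 rose, 12 and 3 of them at least 2-fold (median -1.08). DIN10, a raffinose synthase family gene first found as dark-inducible, had 6.76, 6.17 and 5.58 CPM at 24 h, against 82.4, 87.8 and 89.3 CPM at 12 h, a 14.0-fold fall. AKINBETA1, a subunit of the SnRK1 kinase, fell 5.56-fold, and GDH1 and GDH2, glutamate dehydrogenases, fell 3.75-fold and 4.99-fold. DIN4, of branched-chain amino acid breakdown, fell 2.36-fold. TPS5, a trehalose phosphate synthase family member, rose 5.70-fold. ASN1, the asparagine synthetase best known from dark-kept leaves, was near 0 at both times and was not called, with 0.0474 ± 0.0257 CPM at 24 h and 0.158 ± 0.135 CPM at 12 h; it was called lower without replicate 1 of 12 h and on total counts (edgeR adjusted p = 0.0258 and 0.0192). The list's bZIP1, bZIP11 and bZIP53 were listed at 0 in all 18 libraries and were not tested. Whether such loci were counted at all is not in the labels, so a 0 in every library is not read as an absent transcript.

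**Figure D3:**
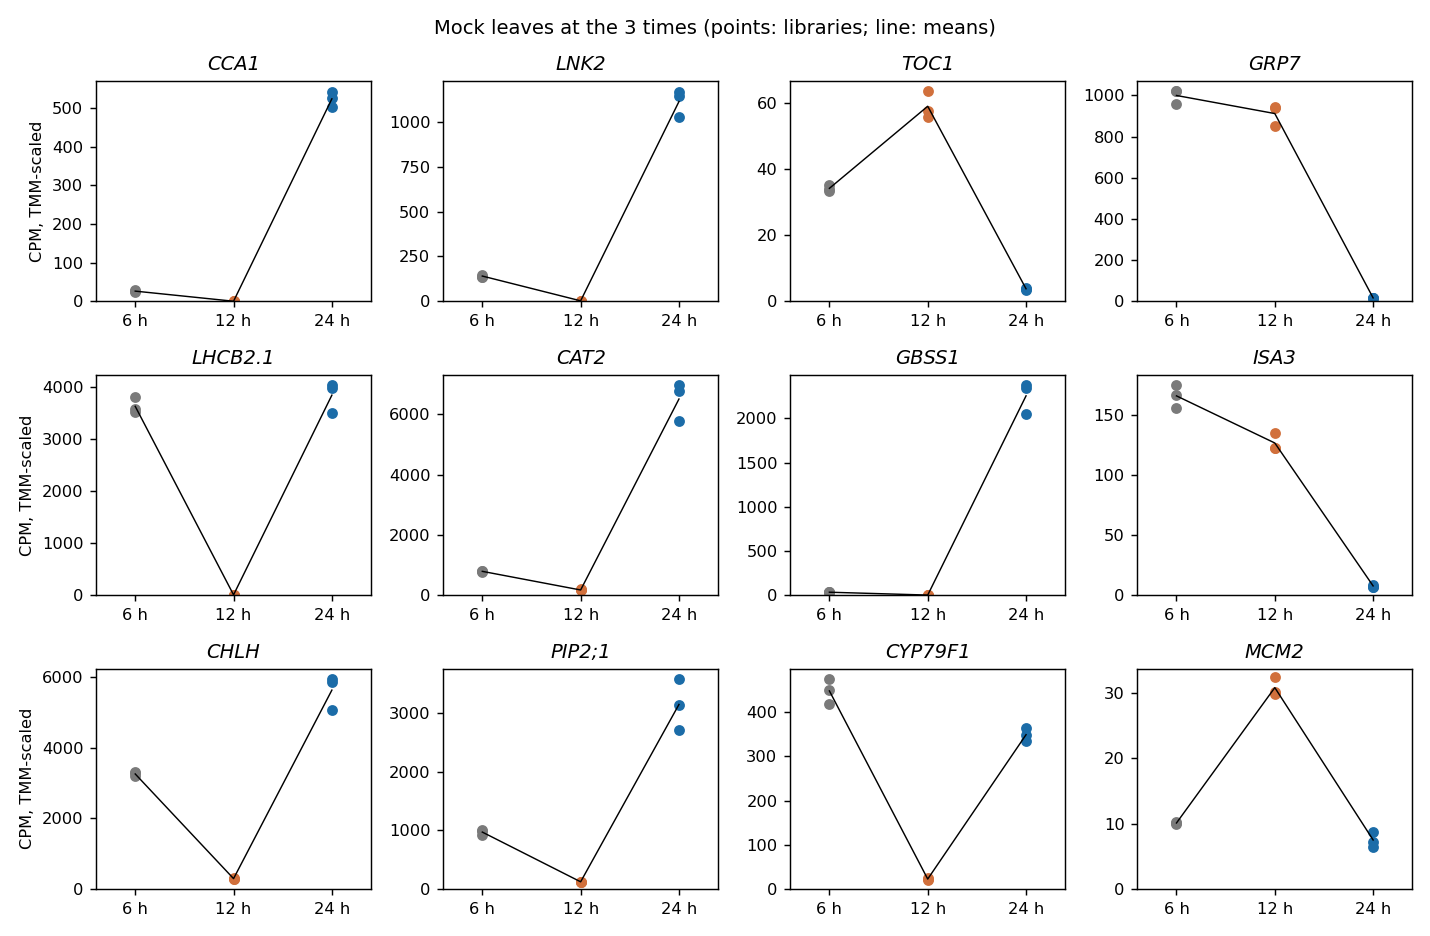
CPM of 12 genes in the mock libraries of 6, 12 and 24 h (x axis; points are libraries, lines join means; each y axis starts at 0). CCA1, LNK2 and GBSS1 are high at 24 h, TOC1 and MCM2 are highest at 12 h, GRP7 and ISA3 are low at 24 h, and LHCB2.1 and CYP79F1 are low at 12 h and high at both other times.

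Nutrient genes moved in both directions for nitrogen and mostly upward for sulfur. Of 17 nitrogen genes 9 rose and 7 fell, 6 and 5 of them at least 2-fold; the median of 0.59 turned to -0.01 on total counts. AMT1;2, an ammonium transporter, had 369, 441 and 435 CPM at 24 h, against 4.21, 4.21 and 6.02 CPM at 12 h, an 85.2-fold rise, whereas AMT2, another ammonium transporter, fell 6.59-fold. NRT1.1 and NRT1.5, nitrate transporters, rose 4.39-fold and 7.23-fold, and NIA2, a nitrate reductase, 2.75-fold. GLT1, the NADH-dependent glutamate synthase, fell 3.37-fold. Of 16 sulfate assimilation genes 12 rose and 2 fell, 10 of the rises and none of the falls at least 2-fold (median 1.45). APR2, the main reductase of activated sulfate, had 1196 ± 54.7 CPM at 24 h and 44.6 ± 1.79 CPM at 12 h, a 26.8-fold rise. APR1 and APR3 rose 8.37-fold and 7.10-fold, APS1, an ATP sulfurylase, 4.15-fold and LSU2, a marker of low sulfur, 9.86-fold.

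Most flavonoid genes rose, and 3 genes of anthocyanin synthesis did not pass the test. Of 21 genes 17 rose, all at least 2-fold, and 1 fell, with a median of 3.94. FLS1, the flavonol synthase, had 199, 219 and 188 CPM at 24 h, against 2.78, 3.25 and 2.23 CPM at 12 h, a 74.1-fold rise. PAL1, PAL2 and C4H, of the phenylpropanoid entry, rose 43.8-fold, 28.8-fold and 12.5-fold, 4CL3 82.3-fold, CHS, chalcone synthase, 16.4-fold, CHI 15.3-fold and UGT78D2, a flavonoid glucosyltransferase, 19.8-fold. F3H had no count at 12 h and 72 at 24 h, at least 28.7-fold higher. DFR, LDOX and UF3GT, of anthocyanin synthesis, stayed at or below 1.37 CPM in every library of both times and were not called, though all 3 were called higher without replicate 2 of 12 h (edgeR adjusted p = 0.0353, 0.0455 and 0.0208) and DFR also without replicate 3 of 24 h (edgeR adjusted p = 0.0377). PAP1, a MYB activator of anthocyanin genes, rose 44.6-fold to 29.7, 49.6 and 33.4 CPM at 24 h, against 0.728, 1.05 and 0.758 CPM at 12 h.

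Aliphatic glucosinolate genes, for defence compounds made from methionine, rose nearly as a set. Of 15 tested 14 rose, all at least 2-fold, with a median of 2.62. CYP79F1, the entry cytochrome P450, averaged 349 ± 15.5 CPM at 24 h and 22.3 ± 2.42 CPM at 12 h. BCAT4, of chain elongation, rose 8.70-fold, CYP83A1 4.03-fold, and SOT17 and SOT18, the final sulfotransferases, 8.65-fold and 4.84-fold. MYB29, an activator of the pathway, rose 6.14-fold, while MYB28, the other activator, had 106 ± 6.33 CPM at 24 h and 108 ± 1.58 CPM at 12 h and was not called, though on total counts it was called lower (log2 -0.63, edgeR adjusted p = 4.05e-06). Of 8 indole glucosinolate genes 6 rose and 2 fell, all at least 2-fold. For 5 of the 8 the change differed between estradiol and mock leaves, beside 2.12% of all tested genes. The list's median log2 change was 0.75 in estradiol leaves and 1.66 in mock leaves. SOT16 rose 5.57-fold, MYB34 4.02-fold and UGT74B1 4.03-fold, and MYB51, the activator tied to defence, fell 4.89-fold.

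Water channels rose. Of 16 aquaporin genes 15 rose, 13 of them at least 2-fold, and none fell (median 2.27). PIP2;1, a plasma membrane channel, had 2717, 3582 and 3134 CPM at 24 h, against 119, 120 and 124 CPM at 12 h, a 26.0-fold rise. PIP1;1, PIP1;2 and PIP1;4 rose 14.2-fold, 8.67-fold and 5.21-fold, TIP1;2, of the vacuole membrane, 4.49-fold, and PIP2;3, which has a near-identical copy, 75.1-fold. Of 11 cuticular wax genes 9 rose and 2 fell, 8 and 1 of them at least 2-fold (median 2.49). WSD1, the wax ester synthase, rose 602-fold to 23.5, 29.3 and 39.0 CPM at 24 h, against 0, 0.0602 and 0.0711 CPM at 12 h. CER1, of alkane synthesis, rose 28.8-fold and CER3 5.62-fold, and DEWAX, a repressor of wax genes, fell 6.68-fold.

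Stress lists were mixed. Of 21 cold and drought genes 12 rose and 5 fell, 10 and 4 of them at least 2-fold (median 0.81). RD29A, a dehydration marker, averaged 172 ± 62.0 CPM at 24 h, against 20.9 ± 3.63 CPM at 12 h. ERD10 and RAB18, dehydrins, rose 5.84-fold and 5.37-fold. In mock leaves of 6 h the means were 623 CPM for RD29A, 294 CPM for ERD10 and 21.4 CPM for RAB18, all above those of 12 h. RD29A was thus lower at 24 h than at 6 h. The list's median log2 change against 6 h was -1.83 at 12 h and -1.63 at 24 h in mock leaves. COR15B, a chloroplast cold protein with a close copy, fell 6.02-fold. HAB1, a phosphatase that holds back abscisic acid signalling, rose 5.21-fold. Of 8 heat shock genes 6 rose, 5 of them at least 2-fold, and 1 fell (median 2.71). HSFA2, a heat shock factor, had 17.3, 25.2 and 25.2 CPM at 24 h and 0.569, 0.722 and 0.948 CPM at 12 h, and HSP90.1 and HSP101 rose 10.4-fold and 6.18-fold.

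Among hormone lists, 6 auxin response genes of 12 rose and 1 fell, 5 and 1 of them at least 2-fold (median 1.02), with SAUR15 7.77-fold, IAA1 3.33-fold and IAA2 2.29-fold higher. In the brassinosteroid, gibberellin and wall list 5 of 13 rose and 6 fell, 4 and 2 of them at least 2-fold (median -0.38). GA20OX1 and GA3OX1, of gibberellin synthesis, rose 38.0-fold and 4.91-fold (log2 5.25 for GA20OX1, 5.88 without replicate 2 of 12 h), and XTH4, a wall-modifying enzyme, fell 2.15-fold. Of 25 jasmonate genes 12 rose and 4 fell, 9 and 4 of them at least 2-fold; the median of 0.52 turned to -0.08 on total counts. JAZ9, a repressor of jasmonate signalling, had 198, 473 and 189 CPM at 24 h, against 28.3, 15.6 and 16.5 CPM at 12 h. MYC2, the main jasmonate factor, had 67.8, 169 and 84.0 CPM at 24 h and 28.4, 25.3 and 21.1 CPM at 12 h. Replicate 2 of 24 h was the highest of its group for both, yet no library of 24 h fell among those of 12 h. VSP2, a wound and jasmonate marker, fell 3.64-fold with wide spread, at 21.9, 48.0 and 6.23 CPM at 24 h and 75.0, 158 and 50.6 CPM at 12 h. Its call was lost without replicate 1 or 3 of 24 h or replicate 2 of 12 h (edgeR adjusted p = 0.0512, 0.066 and 0.109), and without replicate 2 of 24 h its log2 change was -2.74, against -1.86.

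DNA replication genes fell. Of 16 tested 9 fell, all at least 2-fold, and 1 rose (median -1.56). MCM2, of the replicative helicase, had 8.74, 7.25 and 6.47 CPM at 24 h, against 29.9, 30.1 and 32.4 CPM at 12 h, a 4.12-fold fall. MCM3, MCM4, MCM6 and MCM7 fell 2.51-fold, 3.86-fold, 5.06-fold and 4.71-fold, and PCNA2, the polymerase clamp, 5.68-fold. CYCB1;1 and CYCB1;2, mitotic cyclins, had 0.683 ± 0.237 and 1.90 ± 0.694 CPM at 24 h and 0.955 ± 0.221 and 2.01 ± 0.162 CPM at 12 h, and were not called; on total counts both were called lower (edgeR adjusted p = 0.0088 and 0.0337). Of 14 cytosolic ribosomal protein genes 8 fell and 1 rose, none at least 2-fold (median -0.23).

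Senescence genes gave no common direction: 5 of 11 rose and 3 fell, 3 and 3 of them at least 2-fold, and the median of 0.25 turned to -0.35 on total counts. NAP, a NAC factor of leaf ageing, rose 18.3-fold, and SWEET15, a sucrose carrier, had no count at 12 h and 416 at 24 h, at least 166-fold higher. SAG21, a stress and ageing protein, fell 16.4-fold to 12.9 ± 1.86 CPM at 24 h, against 213 ± 2.38 CPM at 12 h. SAG12, the usual marker of late senescence, was listed at 0 in all 18 libraries, with the limit given for the bZIP genes. Of 11 genes often used as references 3 rose and 4 fell, none at least 2-fold. PP2AA3 had 60.9, 59.6 and 60.3 CPM at 24 h and 57.5, 59.9 and 61.3 CPM at 12 h and was not called, though it was called lower on total counts. ACT2 fell 1.55-fold and UBQ10 rose 1.77-fold.

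The same interval in estradiol-sprayed leaves, in 6 libraries outside the mock comparison, gave largely the same changes. Both comparisons came from the same fit and shared its filter, scaling and estimate of the spread. EdgeR called 6735 genes higher (35.0%) and 7432 lower (38.7%) at 24 h against 12 h in estradiol leaves. Of the genes called higher in mock leaves 6180 were called higher in estradiol leaves too, which is 91.8% of the estradiol list and 89.4% of the mock list, and of those called lower 6783 were shared, 91.3 and 90.2%. Calls in opposite directions numbered 3 among the genes higher in mock leaves and 37 among those lower. Over the 19227 genes the log2 fold changes had a Pearson correlation of 0.95 and a Spearman correlation of 0.94, given as a description, since genes are not independent replicates. None of the 14 morning, 11 evening and 15 photoperiod genes differed in its change between treatments. Of all tested genes 2.12% differed, so having none among these lists does not set them apart from other genes. The test was also weak for members with few counts at 12 or 24 h. The difference for BBX16 was -1.73 with an SE of 0.65 and was not called, and the SE was 1.11 for PRR9 and 1.28 for FKF1. CCA1 rose by 10.79 in estradiol leaves and 11.35 in mock leaves on the log2 scale, and TOC1 changed by -3.66 in estradiol leaves and -3.97 in mock leaves.

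**Figure D4:**
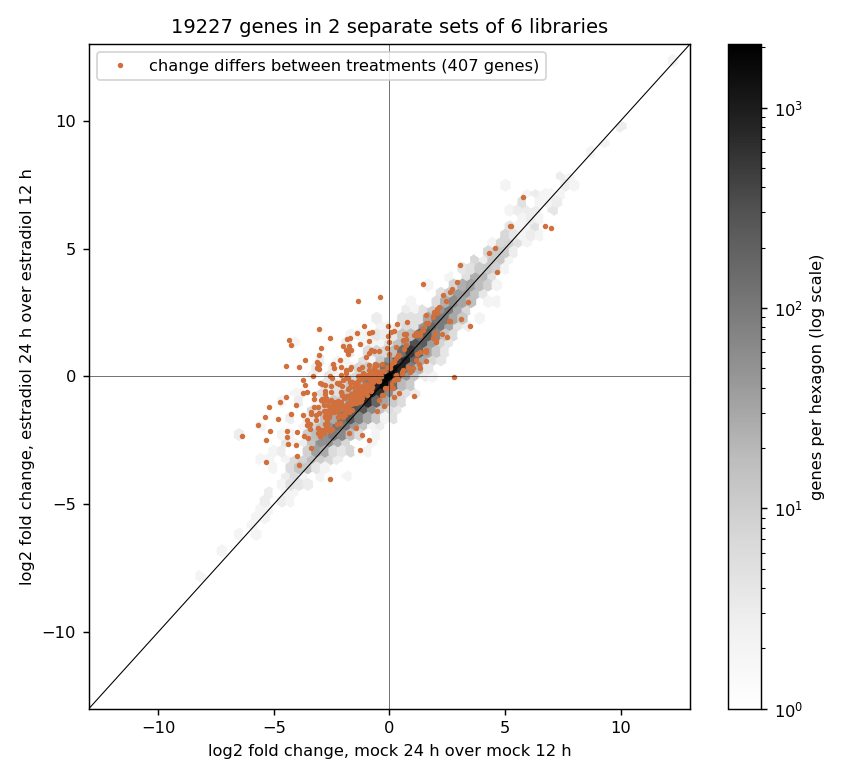
Log2 fold change of 24 h over 12 h in estradiol leaves (y axis) against mock leaves (x axis) for 19227 genes, as hexagons shaded by the number of genes on a log scale; the line marks equal change. The 407 genes whose change differed between treatments (points) lie mostly above the line, where the estradiol leaves fell less or rose more.

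The change between 12 and 24 h differed between treatments for 407 genes (2.12%). For 356 of them (1.85%) the log2 change was higher in estradiol leaves and for 51 (0.265%) lower. The 356 became 204 without replicate 2 of mock 24 h, 209 without replicate 1 of estradiol 24 h and 236 without replicate 3 of mock 12 h. The 51 became 82 without replicate 1 of mock 24 h, and 26 to 32 without replicate 2 of mock 24 h, replicate 1 or 3 of mock 12 h, replicate 1 or 3 of estradiol 24 h or replicate 1 of estradiol 12 h. Immune genes that fell in mock leaves were among them. NUDT6, a Nudix hydrolase known as a target of EDS1 signalling, changed by 1.12 in estradiol leaves and -2.97 in mock leaves on the log2 scale. In mock leaves it had 0.950, 0.837 and 1.17 CPM at 24 h, against 7.88, 7.82 and 7.16 CPM at 12 h. PCR1, a small membrane protein, had 3.27, 2.22 and 5.62 CPM at 24 h and 186, 164 and 195 CPM at 12 h in mock leaves, where it fell, and its log2 change was -1.91 in estradiol leaves and -5.67 in mock leaves. BG3, a glucanase, changed by -2.31 in estradiol leaves and -6.36 in mock leaves (-7.01 without replicate 1 of mock 24 h). RLP41, a receptor-like protein, changed by 1.68 in estradiol leaves and -0.88 in mock leaves.

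More salicylic acid genes fell than rose in mock leaves. Of 21 members of the salicylic acid and N-hydroxypipecolic acid list 10 fell and 2 rose, 6 and 2 of them at least 2-fold. Of all tested genes 39.1% were called lower and 35.9% higher. The list's median log2 change was 0.51 in estradiol leaves and -0.76 in mock leaves. The change differed between treatments for 10 members, beside 2.12% of all tested genes. SARD1, a regulator of ICS1, had 2.51, 1.52 and 2.25 CPM at 24 h, against 14.0, 12.4 and 15.9 CPM at 12 h. CBP60G, its relative, fell 4.22-fold and WRKY54 8.86-fold. NIMIN1 and NIMIN2, which bind the receptor NPR1, fell 20.3-fold and 3.57-fold from low levels. ICS1 and PBS3, enzymes of salicylic acid synthesis, rose instead: PBS3 averaged 7.93 ± 0.184 CPM at 24 h and 1.04 ± 0.234 CPM at 12 h, and ICS1 rose 2.06-fold. PR1, the usual marker of this pathway, was at 0.183 ± 0.237 CPM at 24 h and 0.422 ± 0.252 CPM at 12 h in mock leaves and was not called, but it was called lower without replicate 1 of 24 h (edgeR adjusted p = 0.0455). At 6 h levels were also low for SARD1, at 2.36 ± 0.392 CPM, and CBP60G, at 2.75 ± 0.411 CPM.

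**Figure D5:**
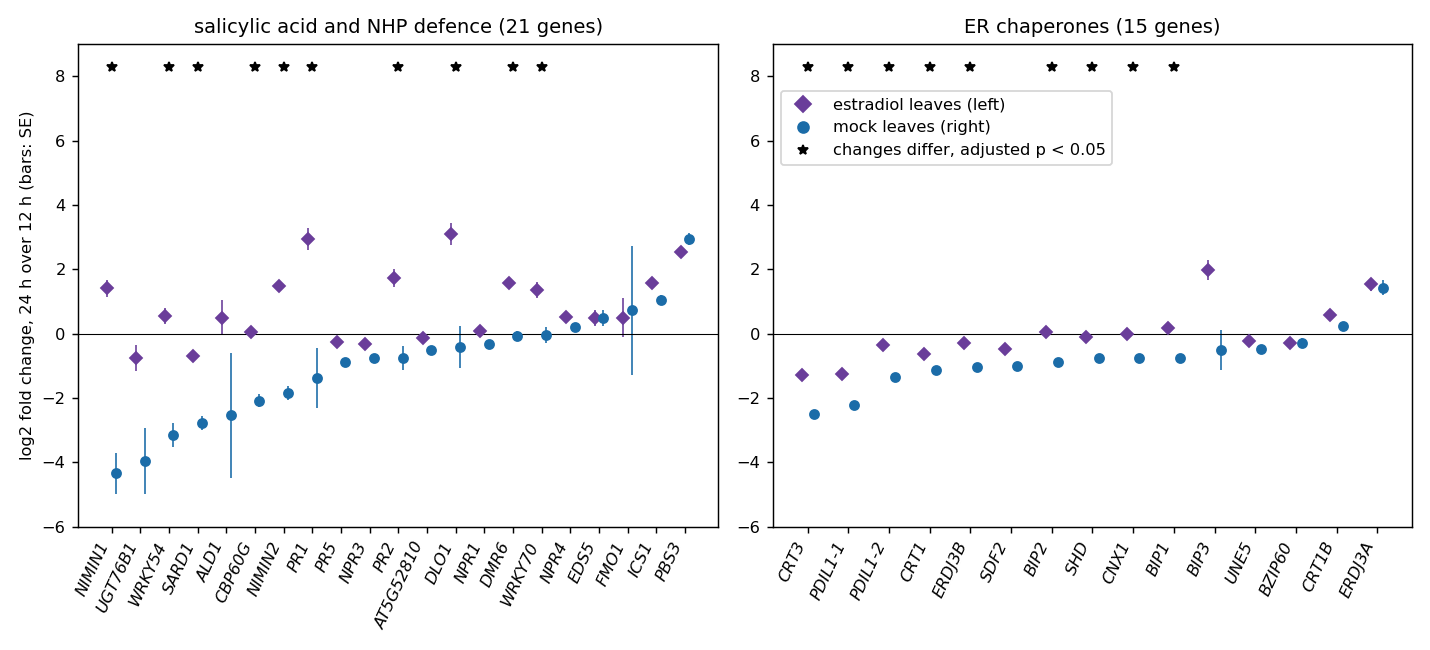
Log2 fold change of 24 h over 12 h with SE for the salicylic acid list (left) and the ER chaperone list (right), in estradiol leaves (diamonds) and mock leaves (circles), from 3 against 3 libraries each; stars mark the genes, 10 of 21 and 9 of 15, whose changes differed. In the starred genes the estradiol value is the higher one. Of all tested genes 2.12% differed.

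Chaperones of the endoplasmic reticulum, which fold secreted proteins, fell in mock leaves. Of 15 tested 11 fell and 2 rose, 5 and 1 of them at least 2-fold (median -0.77). The change differed between treatments for 9 of them, beside 2.12% of all tested genes. CRT3, a plant-specific calreticulin, had 36.0, 33.1 and 39.7 CPM at 24 h, against 201, 205 and 203 CPM at 12 h, a 5.60-fold fall. Its level at 6 h was 53.0 ± 0.985 CPM. PDIL1-1 and PDIL1-2, disulfide isomerases, fell 4.65-fold and 2.54-fold, CRT1 2.17-fold and ERDJ3B 2.06-fold. On the log2 scale CRT3 changed by -1.30 in estradiol leaves and -2.49 in mock leaves, and PDIL1-1 by -1.26 in estradiol leaves and -2.22 in mock leaves.

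Cell type markers were compared as a check on the leaf label. All 5 mesophyll markers rose, 4 of them at least 2-fold, and their sum was 64615 to 72666 CPM at 24 h and 22123 to 24339 CPM at 12 h; they are photosynthesis genes themselves, and the part of cell composition in the results above was not tested. Of 8 epidermis and guard cell markers tested 5 rose and 1 fell, 1 of the rises at least 2-fold, and their sum was 619 to 664 CPM at 24 h and 312 to 316 CPM at 12 h. Of 9 vascular markers 4 rose and 2 fell, and the sum was 516 to 570 CPM at 24 h and 592 to 623 CPM at 12 h. SWEET12, a phloem sucrose carrier, fell 11.9-fold, and SUC2, the companion cell carrier, rose 1.37-fold, a direction that turned on total counts. The summed root markers stayed below 0.45 CPM, and of the flower markers AG alone passed the filter, at 2.44 ± 0.387 CPM at 24 h and 0.781 ± 0.236 CPM at 12 h. EXPA7 and IRT1 of the root markers and LFY of the flower markers were listed at 0 in all 18 libraries. The limit given for the bZIP genes holds for them too.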

How the data were processed

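Gene counts were used as the authors deposited them, 1 whole-number count per gene and library. Per the submitters' processing notes reads were handled with FastQC 0.11.2, TopHat2 2.0.10 and HTSeq on the TAIR10 build; the counting mode, the strand setting and the annotation release were not given in these notes or the labels, and counts of overlapping, antisense and near-identical genes (LHCB1, LHCB2, RBCS, aquaporins, COR15) are uncertain. The 5 HTSeq rows for unassigned reads, 6.10 to 6.71% of reads in the mock libraries of 24 and 12 h, were dropped. Column names gave each library's group and number.

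EdgeR 4.0.16 in R 4.3.3 was fitted with TMM scaling and 6 group coefficients over all 18 libraries after its expression filter (minimum count 10, minimum total 15), and tested by quasi-likelihood with Benjamini-Hochberg adjustment; SE is the log2 fold change over the root of F. The fit was tested on simulated data in which few genes changed, as many up as down. That setting does not test the scaling where most genes change. A floor of 3 counts was 0.0624 to 0.120 CPM in these mock libraries. Alternatives were DESeq2 1.42.0, limma 3.58.1 (voom), other scalings, filters, thresholds and libraries, and a replicate block; total counts without TMM were added after seeing the data.

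Members and lists were chosen with earlier results of these data known. Named genes are PAD4 and EDS1, the 15 largest rises and falls with a symbol and no overlap, all clock genes, per list up to 6 called members of smallest adjusted p and 2 not called, and the 5 smallest adjusted p of the treatment difference. BAM3, CDF1, CDF3, CHS, CO, CRY2, F3H, FNR2, ICS1, MYB29, NIA2, NPQ1, PAL1, PAP1, PORB, UF3GT and VSP2 were chosen after their values were seen. Promoters were cut by locus from RefSeq's TAIR10.1 genome with its own gene starts, for 19100 of the 19227 tested genes.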

Additional observations from a re-analysis of the deposited data

Results flagged for a closer look

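Of the genes named above, 29 changed differently between 12 and 24 h in estradiol and in mock leaves, by edgeR's test of that difference (adjusted p below 0.05 over all 19227 genes, 3 libraries in each of 4 groups). Of all tested genes 2.12% differed. Some genes were named for their small adjusted p in this same test, and the lists were chosen with earlier results known. The 29 therefore cannot be read as a share against that background. The values are the log2 change in estradiol leaves minus that in mock leaves. Immune, chaperone and other genes whose change was higher in estradiol leaves had differences of 5.75 for NIMIN1, 4.32 for PR1, 4.09 for NUDT6, 4.05 for BG3, 3.76 for PCR1, 3.70 for WRKY54, 3.32 for NIMIN2, 2.56 for RLP41, 2.13 for CBP60G, 2.08 for SARD1, 1.34 for SAG21 and 1.19 for CRT3. Smaller positive differences were 1.01 for AMT2, 1.01 for PDIL1-2, 0.95 for PDIL1-1, 0.74 for ERDJ3B, 0.68 for BAM3, 0.68 for HSP101, 0.66 for MCM4, 0.62 for CAT2, 0.59 for NRT1.1, 0.53 for MCM2, 0.50 for CRT1 and 0.50 for UGT78D2. Where the change was lower in estradiol leaves the differences were -0.47 for AMY3, -1.41 for COR15B, -0.59 for MYB34, -0.92 for SOT16 and -0.65 for UGT74B1. Causes were not tested.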

How the results depend on the processing

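On total counts alone, without TMM, 3426 genes were called higher and 12598 lower at 24 h against 12 h in mock leaves, 3561 and 12224 in estradiol leaves, and 11861 and 2887 at 12 h against 6 h in mock leaves. The directions of CP12-1 (-0.58), LKP2 (-0.44), PP2AA3 (-0.59), SUC2 (-0.15) and TKL1 (-0.59) turned there, and so did the medians named above and those of epidermis (-0.14) and vascular markers (-0.16) and of the reference genes (-0.59, and -0.06 with upper-quartile scaling).

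Asking for at least 2-fold left 3147 higher and 3033 lower in mock leaves, 3069 and 2756 in estradiol leaves, 1607 and 2007 at 12 h against 6 h, 2145 and 2143 at 24 h against 6 h, and 174 and 10 for the difference between treatments. That difference gave 175 and 16 genes at an adjusted p below 0.01, 477 and 88 by DESeq2, and 32 lower when fitted on its own libraries. Leaving out 1 library at a time gave 6557 to 6801 higher and 7146 to 7363 lower in mock leaves, 6413 to 6564 and 7116 to 7219 in estradiol leaves, 6017 to 6111 and 5505 to 5593 at 12 h against 6 h, 6172 to 6367 and 5770 to 5958 at 24 h against 6 h, and 204 to 379 and 26 to 82 for the difference.

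Same-numbered mock libraries of 24 and 12 h did not deviate together (correlations -0.01, -0.06 and 0.01), so the numbers were not taken to pair them; with a replicate block 6854 genes were called higher and 7482 lower. DESeq2, limma-voom, no filter and the replicate block kept the call and direction of all 208 genes checked. Leaving out 1 library also changed small list counts by 1 gene (auxin, sulfate, ribosomal, replication, chaperone, vascular and chloroplast regulator lists). Levels under the floor of 3 counts limit the size of the largest folds.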
